A study of Mus musculus with 10 samples.

Results

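The genes described here supply the cell with charged tRNA, with amino acids and with serine-derived carbon. They were chosen by name, with earlier results of these data known, so contrasts with all genes are descriptive. The list holds 20 cytosolic aminoacyl-tRNA synthetases, 9 amino acid transporters of the plasma membrane and 7 enzymes of serine synthesis and one-carbon metabolism. That makes 36 of the 23924 usable gene symbols in each of the study's expression tables. All 36 passed the filter on low values in both tables, and their levels ran from 0.897 to 222 FPKM with none at 0 in any library. FPKM divides the fragments of a gene by its length and by the total mapped in the library, so levels of different genes can be set side by side.

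The libraries came from mouse pancreatic tumours that had been transplanted into the pancreas of athymic nude mice, hosts without a thymus. There were 2 tumour models, named KrasT and MycT in the labels. Untreated hosts (day 0) gave 3 KrasT and 2 MycT tumours. Hosts that drank doxycycline at 100 ug/ml with 2.5% sucrose for 2 weeks gave 3 KrasT and 2 MycT tumours, taken at day 14. Doxycycline switches transgenes that are under tetracycline control. The question behind the comparison is what becomes of a tumour once the oncogene that started it is withdrawn. The labels do not describe the transgenes or say how the tumours are related, and they name no sucrose for untreated hosts. Sucrose, doxycycline itself and loss of the oncogene therefore cannot be told apart. Nothing states that the tumours of a group had separate origins, so the p-values measure the spread between these libraries, which may be partly technical. RNA came from whole tissue, so fewer tumour cells and less RNA per cell cannot be told apart either.

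Aminoacyl-tRNA synthetases join each amino acid to its tRNA, the step that sets the genetic code before the ribosome reads it. Serine is made from a glycolytic intermediate by Phgdh, Psat1 and Psph in turn. The serine hydroxymethyltransferases Shmt1 and Shmt2 then split it into glycine and a one-carbon unit carried on folate, which Mthfd1 and Mthfd2 pass on to purine and thymidylate synthesis. Many of these genes are textbook targets of ATF4, the transcription factor of the amino acid response, and of MYC.

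A group of the members carries short motifs of those factors beside the gene start, and their promoters are shown for that reason. RefSeq promoters (GRCm38.p6, 250 bases before to 50 after the start) were matched for 26 of the 36 members. Cars, Hars, Lars, Nars, Rars, Vars, Wars, Slc7a5, Slc1a5 and Slc38a1 had no match. TGATGNAA, the core of the element bound by ATF4 with C/EBP partners, was found on either strand in 6 of the 26 (23.1%) and in 4.51% of the 27025 genes with such a window. CACGTG, the palindromic E-box bound by MYC with MAX, was found in 4 of the 26 (15.4%) and in 8.09% of all. The whole window was searched, the motifs did not overlap each other where both occurred, and no test was made. Gars, the glycyl-tRNA synthetase, was called lower after doxycycline in both models on the deposited values, while Aars, the alanyl-tRNA synthetase, was among the few members without a lower mean in MycT. Their 250 bases before the start are printed 5′ to 3′ on the gene's strand, with TGATGNAA (or its reverse complement) and CACGTG in capitals, at chr6:55037751-55038000 (plus strand) for Gars and chr8:111033592-111033841 (plus strand) for Aars.
Gars: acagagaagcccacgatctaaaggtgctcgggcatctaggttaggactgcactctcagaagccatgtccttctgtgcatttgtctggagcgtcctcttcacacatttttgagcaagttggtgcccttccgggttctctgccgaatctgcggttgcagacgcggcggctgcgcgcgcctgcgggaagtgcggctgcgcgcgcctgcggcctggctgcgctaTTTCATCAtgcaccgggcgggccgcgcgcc
Aars: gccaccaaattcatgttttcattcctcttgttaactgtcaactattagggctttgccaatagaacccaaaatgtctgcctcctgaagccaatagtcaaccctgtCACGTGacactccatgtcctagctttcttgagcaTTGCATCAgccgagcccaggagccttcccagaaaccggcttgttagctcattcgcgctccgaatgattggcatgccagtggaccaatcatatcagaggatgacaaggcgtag

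In Gars the motif begins 30 bases before the start. The other members with TGATGNAA were Iars, Tars, Yars and Slc1a4, and those with CACGTG were Farsb, Iars and Tars. Aars has a further TGATGNAA match past the start, in chr8:111033840-111033869, which is not printed. The CACGTG windows of Iars (chr13:49682049-49682078) and Tars (chr15:11399622-11399651) are not printed either. Each gene is shown in a single 30-base window with the motif in capitals, from chr13:49682126-49682155 (Iars, plus strand), chr15:11399655-11399684 (Tars, minus), chr4:129189895-129189924 (Yars, plus), chr11:20332699-20332728 (Slc1a4, minus) and chr1:78488919-78488948 (Farsb, minus).
Iars: cactgtcagtaTTGCATCAcctccagacgc
Tars: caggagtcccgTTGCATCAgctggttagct
Yars: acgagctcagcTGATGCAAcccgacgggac
Slc1a4: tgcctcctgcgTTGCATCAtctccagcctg
Farsb: ttagacaggcatCACGTGagacagcccaag

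Of the 7 members with either motif, Gars passed the test of doxycycline against untreated, described below, in KrasT and in MycT, where the test shared its spread over all 10 libraries (the 10-library comparison). Aars, Iars, Tars, Yars, Slc1a4 and Farsb passed in neither.

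Several features of the libraries touch all results that follow. Total FPKM was 789672 to 1018970 in untreated and 513949 to 569272 in doxycycline KrasT libraries, and 1126800 to 1517330 against 546008 to 557227 in MycT. Read depth is not given by FPKM and is unknown. Untreated KrasT replicate 1 stood apart: across genes its Pearson correlation with the other untreated KrasT libraries was 0.823 and 0.839, and theirs with each other 0.966. Rn45s, the ribosomal RNA precursor, was at 17238 FPKM in KrasT doxycycline replicate 1 and 20880 in MycT doxycycline replicate 2, against at most 2231 elsewhere. Markers of other cells moved with treatment. Of 9 fibroblast genes, 8 rose in KrasT and 7 in the 10-library MycT comparison, and their summed level went from between 290.5 and 661.9 FPKM to between 3811 and 9210 in KrasT and from between 35.8 and 420.8 to between 1632 and 2386 in MycT. Of 7 endothelial genes, 6 rose in each. The 10 ductal and tumour epithelial genes summed to 2568 to 19930 FPKM in untreated and 308.3 to 2029 in doxycycline KrasT tumours, with 2 called lower. These 2, Krt8 and Krt18, were also the only ones whose KrasT groups did not overlap. In untreated KrasT replicate 1, Epcam, Krt7, Cdh1, Cldn4 and Muc1 were at 7.22, 7.1, 4.67, 2.09 and 1.48 FPKM. Those values lay below every doxycycline KrasT library, while Krt8, Krt18, Krt19, Sox9 and Msln of that replicate did not. In MycT the 10 genes summed to 485.8 to 1351 and 979.3 to 2274, with 2 called higher in the 10-library comparison. No gene of these 3 lists was at 0 in any library. Among the genes tested in KrasT, 2 of 7 macrophage, 2 of 3 neutrophil, 3 of 4 B and plasma cell, 2 of 4 adipocyte and 2 of 7 islet genes rose. There 0 of 8 acinar, 0 of 3 T and NK cell, 0 of 5 skeletal muscle and 0 of 4 erythroid genes passed in limma, with 2, 3, 2 and 1 at an unadjusted p under 0.05. In the 10-library MycT comparison 2 of 6 macrophage, 1 of 3 neutrophil, 2 of 3 T and NK cell, 3 of 4 B and plasma cell and 1 of 4 adipocyte genes rose. There 0 of 8 acinar, 0 of 6 islet, 0 of 3 muscle and 0 of 2 erythroid genes passed in limma, with 0, 2, 0 and 0 at an unadjusted p under 0.05. Of all genes tested, 8.46% were called higher and 8.25% lower in KrasT, and 8.11% and 12.3% in the 10-library MycT comparison. The part of these cells in the results was not tested. Myc itself was at 26.3, 73.1 and 36.6 FPKM in untreated and 12.5, 7.84 and 6.3 in doxycycline KrasT libraries. In MycT it was at 0.398 and 2.85 untreated and at 9.54 and 8.98 after doxycycline. No source used here tells whether reads of a transgene were counted under the mouse symbol, and so these values do not check the labels.

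The first comparison asks how the members differ between untreated and doxycycline KrasT tumours. Of the 20 synthetases 6 were called lower after doxycycline, as were the lysine and arginine carrier Slc7a6 and the serine enzymes Psat1 and Psph, and no member was called higher. In all, 34 of 36 members had a lower mean log2 level and 2 a higher one. With limma on log2(FPKM + 1), 9 of 36 fell at a Benjamini-Hochberg adjusted p under 0.05, taken over 12696 genes, of which 8.25% fell. None of the 36 rose, against 8.46% of all genes, and the 15 members with an unadjusted p under 0.05, a threshold that 34% of all genes met, were all lower. The groups did not overlap for 17 members that were lower and 0 that were higher, against 23% and 16.8% of all genes. The median log2 change of the members was -0.80 and that of all genes tested -0.10.

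The answer for KrasT depended on single libraries and on the scaling. Without doxycycline replicates 1, 2 and 3 in turn, 5, 2 and 0 members passed, and without untreated replicates 2 and 3, 1 and 0 passed. The share of all genes called lower moved with these counts, to 3.1%, 2.16%, 0.339%, 1.21% and 0.386% in the same order. Without untreated replicate 1, the library that stood apart, 17 members passed, all of them lower, and 17.6% of all genes were called lower. Rescaling all libraries to equal total FPKM, an alternative chosen after seeing the data, left Cars and Slc7a6 as the 2 members called lower. It moved the median of all genes from -0.10 to 0.53 and that of the members to -0.13, and the calls over all genes from 1047 lower and 1074 higher to 232 and 2558. The members' median lay below that of all genes on either scale, while the sign of 15 of the 36 turned with equal totals.

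**Figure D1:**
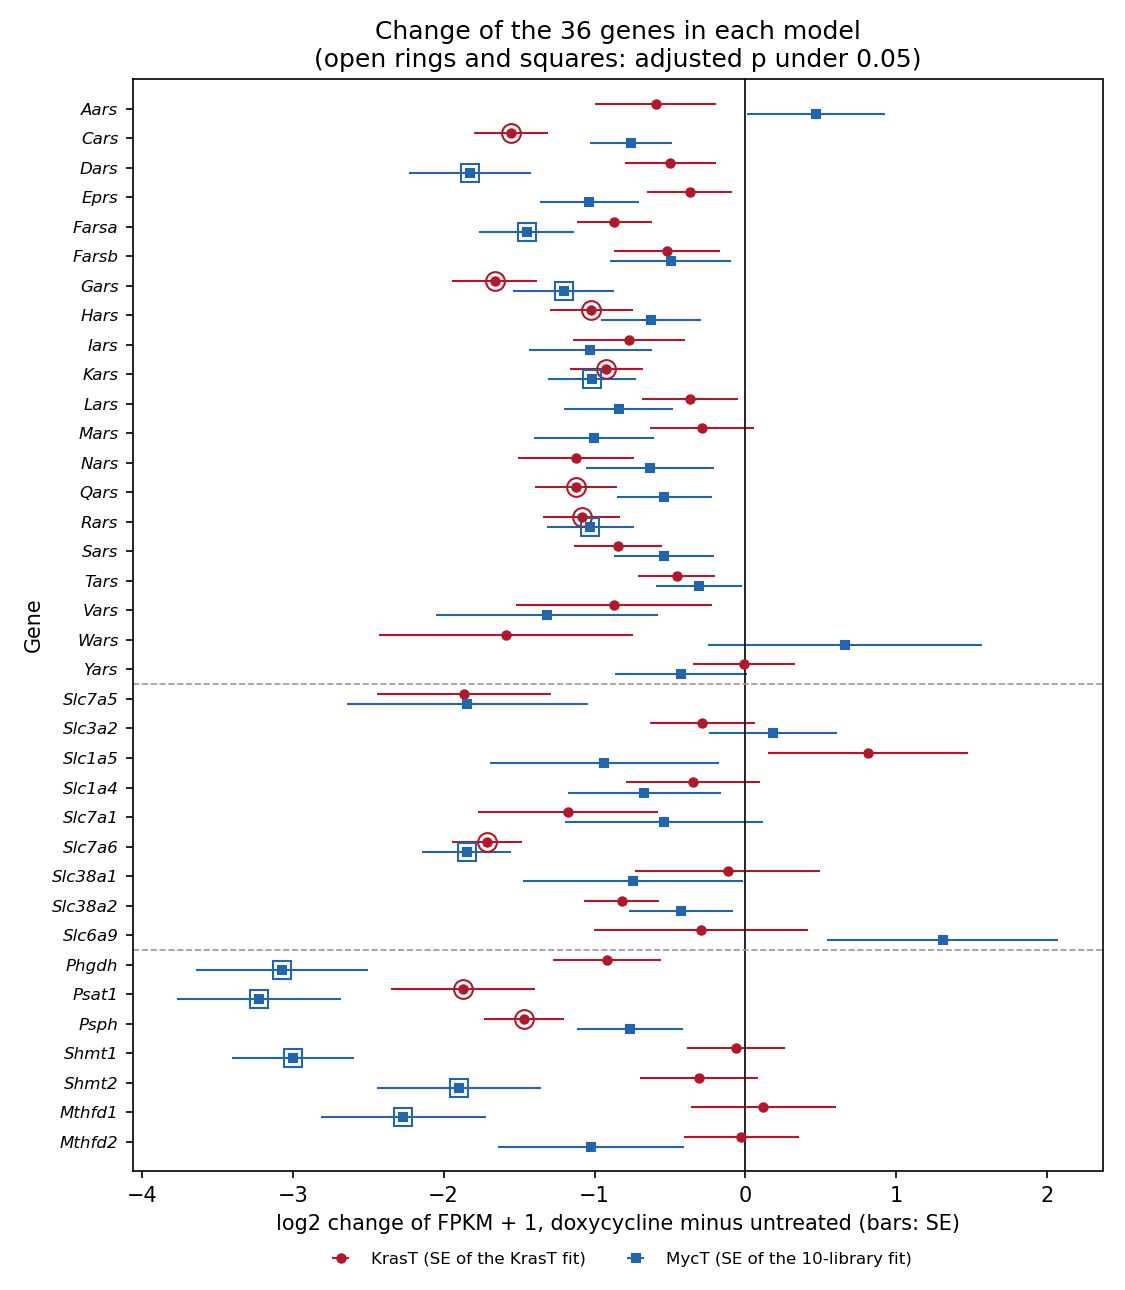
The log2 change of FPKM + 1 from untreated to doxycycline (horizontal axis) is plotted for each of the 36 genes, as points with SE bars, in KrasT (red circles) and MycT (blue squares). Dashed lines part synthetases, transporters and serine enzymes. Outer rings or squares mark the 9 KrasT and 11 MycT genes past the limma adjusted p of 0.05. The KrasT calls are from the KrasT table alone. The MycT calls are from the fit of all libraries together, which shares the KrasT spread. The MycT table alone called 0 of the 36 genes. Nearly all marks lie left of 0, and 5 of the 7 serine enzymes of MycT (Psat1, Phgdh, Shmt1, Mthfd1 and Shmt2) lie farthest left. With equal library totals 15 KrasT and 22 MycT signs turn.

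Cytosolic synthetases shared 1 direction in KrasT on the deposited values. All 20 had a lower mean log2 level after doxycycline, 6 of them fell by the test (Cars, Gars, Hars, Kars, Qars and Rars), and the median change was -0.86, or -0.18 with equal library totals, where 8 of the 20 signs turned. Their summed level was 632.9 to 1286 FPKM in untreated and 396.1 to 461.7 in doxycycline libraries. As a share of total FPKM that was 0.0621% to 0.145% and 0.0696% to 0.0822%, so the shares overlapped between groups where the sums did not.

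Gars was the synthetase with the largest called fall in KrasT. It was at 76.1, 127.7 and 90.8 FPKM in untreated replicates 1, 2 and 3 and at 36.7, 27.8 and 25.5 after doxycycline. The untreated libraries all lay above the doxycycline ones, and the untreated mean was 3.27 times the other. The log2 change was -1.66 ± 0.28 (SE, limma adjusted p = 0.0165). Cars, which charges cysteine, was at 32.2, 28.4 and 24.3 FPKM untreated and then 8.39, 7.99 and 10.6 after doxycycline, again without overlap and with a close spread on both sides. Its change was -1.55 ± 0.24 (SE, limma adjusted p = 0.0142), and it was called under all 7 settings of filter, pseudocount and scaling.

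The other called synthetases fell by about a log2 unit. Qars, for glutamine, was at 55.4, 98.1 and 83.8 FPKM and then 36.4, 36 and 32.3 (log2 change -1.12, limma adjusted p = 0.0371). Rars, for arginine, was at 36.6, 49.4 and 38 FPKM and then 23.6, 16.7 and 16.8 (-1.09, limma adjusted p = 0.0341). These groups did not overlap. Hars, for histidine, was at 36.4, 59.2 and 44.8 FPKM and then 27.1, 19.9 and 20 (-1.02, limma adjusted p = 0.0476). Kars, for lysine, was at 57.4, 88.3 and 70.4 FPKM and then 37.5, 39 and 34.6 (-0.92, limma adjusted p = 0.0444). In each of the 4 genes the highest untreated value was that of replicate 2 and every doxycycline value lay below every untreated one. Their calls were lost in 5 of the 6 fits that left out a library and remained without untreated replicate 1.

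Among the remaining 14 synthetases the log2 change ran from -0.01 in Yars, the tyrosyl enzyme, to -1.59 in Wars. Wars, the tryptophanyl-tRNA synthetase, is also known as an interferon-induced gene. It was at 18.3, 222.0 and 125.3 FPKM in untreated replicates 1, 2 and 3 and at 22, 31.5 and 25.9 after doxycycline. Untreated replicate 1 thus lay below all doxycycline libraries and the other untreated libraries far above them. With this spread the change of -1.59 ± 0.84 (SE) had a limma adjusted p of 0.235. Vars, the valyl enzyme, had the same order, at 13.4, 91 and 55.2 FPKM untreated and 18.1, 22.1 and 26.5 after doxycycline. Both were among the 8 members that gained a call once untreated replicate 1 was left out. Farsa, the catalytic subunit of the phenylalanyl enzyme, was just short of the test (-0.87 ± 0.25 SE, limma adjusted p = 0.0567). Its partner subunit Farsb had a change of -0.52 (limma adjusted p = 0.339).

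**Figure D2:**
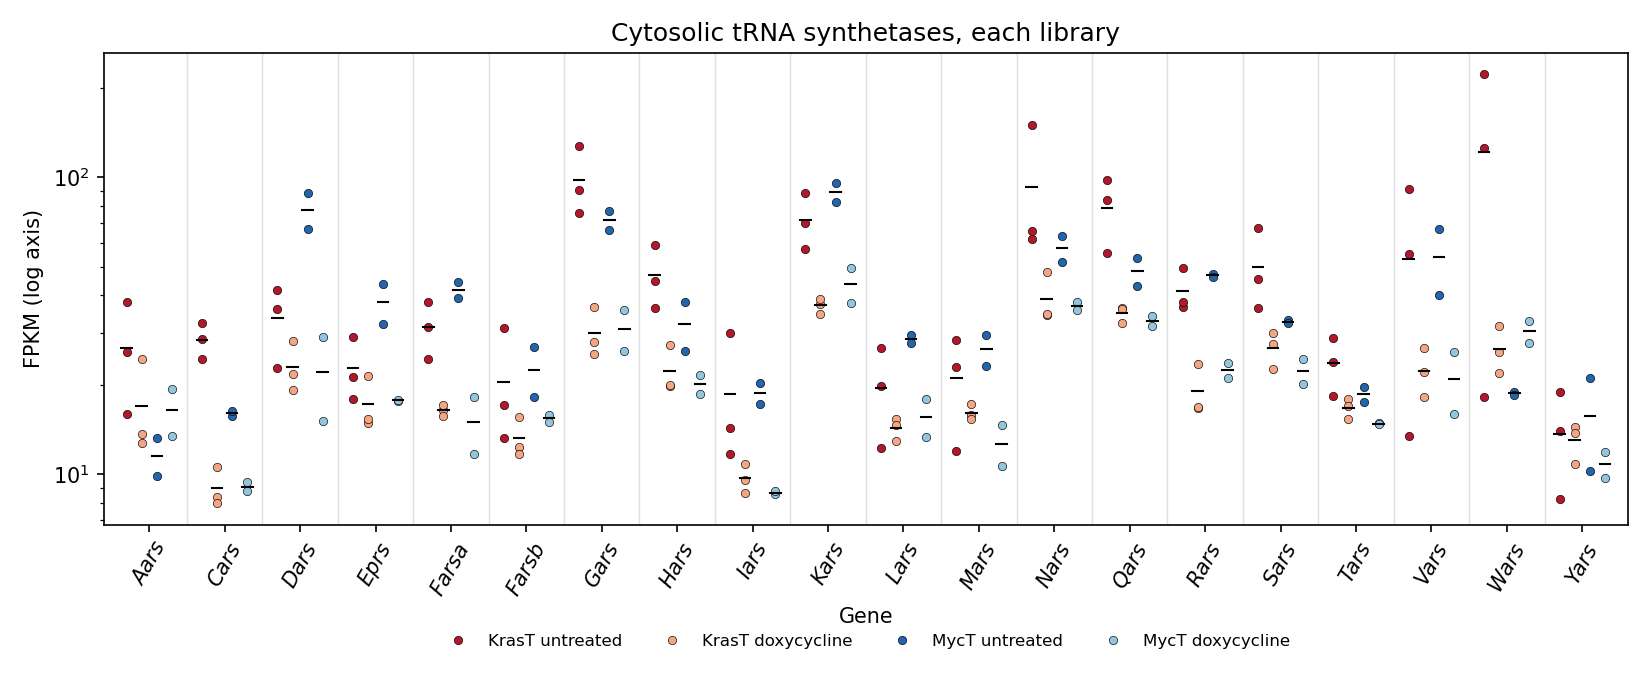
FPKM on a log axis is plotted for each of the 20 cytosolic synthetases in each of the 10 libraries, coloured by model and treatment, with bars at group means. Untreated KrasT values of Wars and Vars spread widest, from 18.3 to 222.0 and from 13.4 to 91 FPKM, while Cars, Gars, Kars, Qars and Rars show untreated values above the doxycycline ones in both models.

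Of the 9 transporters, Slc7a6 alone fell in KrasT, and the median of the group was -0.35, or 0.24 with equal library totals. Slc7a6 encodes y+LAT2, which exchanges arginine and lysine for neutral amino acids as a partner of the heavy chain Slc3a2. It was at 30.1, 24.1 and 32 FPKM in untreated replicates 1 to 3 and at 7.87, 8.51 and 7.7 after doxycycline. The groups were far apart and narrow. The change was -1.71 ± 0.23 (SE, limma adjusted p = 0.0104), it was called under all 7 settings, and it was lost only without untreated replicate 3 or doxycycline replicate 3, where no member passed.

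Slc7a5, or LAT1, carries leucine and other large neutral amino acids as a partner of Slc3a2. Its untreated values were 11.1, 46.9 and 35.9 FPKM, followed by 10.9, 4.05 and 6.36 after doxycycline. The lowest untreated library, replicate 1, was level with the highest doxycycline library, and the change of -1.86 ± 0.58 (SE) had a limma adjusted p of 0.0698. Slc3a2 itself was at 51.3, 72.7 and 49.4 FPKM and then 67.6, 30.1 and 49.2 (-0.29, limma adjusted p = 0.602). The groups of the heavy chain overlapped where those of the light chain Slc7a6 did not.

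Slc1a5, the main glutamine carrier ASCT2, was 1 of the 2 members with a higher mean log2 level in KrasT. It was at 5.67, 37.9 and 17.7 FPKM untreated and then 44.6, 17.5 and 30.2 after doxycycline, with wide overlap (0.81 ± 0.66 SE, limma adjusted p = 0.429). Slc38a2, a sodium-coupled carrier of small neutral amino acids, had groups that did not overlap, at 55.2 to 61.8 and 28.8 to 43.5 FPKM (-0.82, limma adjusted p = 0.0658). Slc7a1, the cationic carrier CAT1, was at 2.6, 17.2 and 12.2 FPKM untreated and 3.73, 3.35 and 2.64 after doxycycline (-1.18, limma adjusted p = 0.216). Slc1a4, Slc38a1 and Slc6a9, carriers of alanine and serine, of glutamine and of glycine, had changes of -0.35, -0.12 and -0.30. None of these 6 passed.

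**Figure D3:**
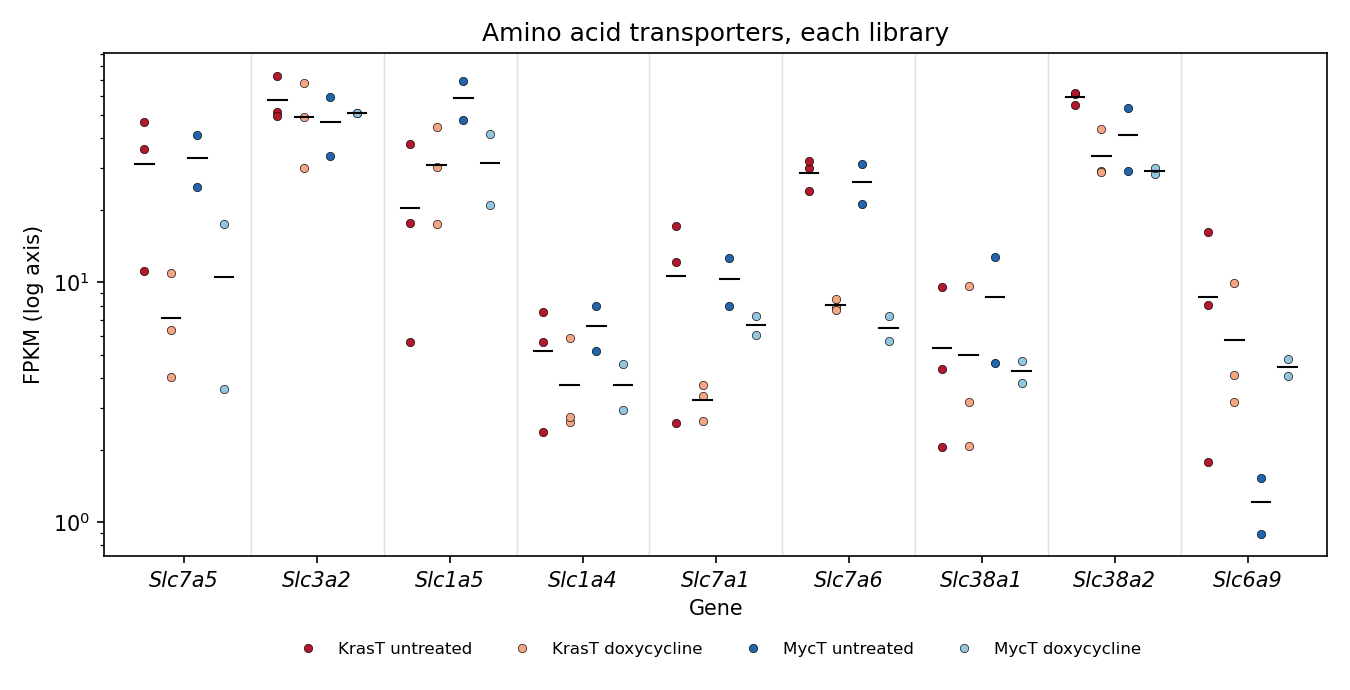
FPKM on a log axis is plotted for each of the 9 transporters in each library, coloured by model and treatment, with bars at group means. Slc7a6 is the gene with narrow groups far apart in both models, at 24.1 to 32 against 7.7 to 8.51 FPKM in KrasT and 21.2 to 31.2 against 5.72 to 7.23 in MycT.

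In the serine pathway of KrasT the steps after Phgdh fell, and Phgdh and the folate steps did not pass. Psat1, the phosphoserine aminotransferase, was at 25.9, 56.5 and 23.7 FPKM in untreated replicates 1 to 3 and at 15.1, 6.32 and 5.63 after doxycycline. The groups did not overlap, the untreated mean was 3.92 times the doxycycline mean, and the change was -1.87 ± 0.48 (SE, limma adjusted p = 0.0415). Psph, the phosphatase that releases serine, was at 21.1, 25.9 and 15.9 FPKM and then 6.98, 6.42 and 6.98 (-1.47 ± 0.27 SE, limma adjusted p = 0.0184). Both calls were kept without doxycycline replicate 1 or untreated replicate 1 and lost in the other 4 such fits.

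Phgdh, the dehydrogenase that commits carbon to serine, did not pass in KrasT. It was at 42.1, 92.7 and 40.1 FPKM untreated and then 30.3, 26.3 and 28 after doxycycline, without overlap (-0.92 ± 0.36 SE, limma adjusted p = 0.123). The cytosolic Shmt1 was low throughout, at 2.35, 4.36 and 2.27 FPKM and then 3.86, 2.59 and 1.95 (-0.06, limma adjusted p = 0.914). The mitochondrial Shmt2 was at 14.8, 25.9 and 9.26 FPKM and then 15.2, 10.2 and 11.7 (-0.31, limma adjusted p = 0.62). Mthfd1 and Mthfd2, the cytosolic and mitochondrial folate enzymes, also overlapped between groups. Mthfd1 was at 8.06, 16.9 and 4.28 FPKM and then 6.5, 11.1 and 11, and Mthfd2 at 4.37, 11.7 and 4.66 and then 6.06, 5.89 and 6.52. The median change of the 7 enzymes was -0.31, which turned to 0.36 with equal library totals and to 0.05 without untreated replicate 2.

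The second comparison makes the same contrast in MycT tumours, with 2 libraries a side. Here the serine and one-carbon enzymes were lower by the largest amounts, with Slc7a6 and some synthetases beside them. A fit of the MycT table alone called 0.039% of 12834 genes in either direction and 0 of the 36 members, although 16 members had an unadjusted limma p under 0.05, as did 4284 of all genes. An exact permutation of 2 against 2 cannot go below p = 0.333. Fitting all 10 libraries together, so that the spread is shared with KrasT, called 11 of 36 members lower and 0 higher, against 12.3% and 8.11% of 12073 genes. Means were lower on the log2 scale for 32 members and higher for 4 (Aars, Wars, Slc3a2 and Slc6a9). The MycT groups did not overlap for 28 members that were lower and 3 that were higher, against 32.8% and 31.9% of all genes. The median log2 change was -0.89 for the members and 0.04 for all genes.

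Scaling moved the values by more here than in KrasT, and total FPKM also differed by more. With equal library totals the median of all genes was 1.08 and that of the members 0.29, and 22 of 36 signs turned. The 10-library fit then called 297 genes lower and 4871 higher, against 1484 and 979 before. Of the members it called Phgdh, Psat1 and Shmt1 lower and Aars, Slc3a2 and Slc6a9 higher. Gars, Kars and Rars, called lower on the deposited values, had changes of 0.01, 0.21 and 0.18 then.

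The serine enzymes of MycT held the members' largest differences between treatments. Their summed level was 466.5 and 610.7 FPKM in untreated and 57.38 and 132.4 in doxycycline libraries, or 0.0307% and 0.0542% against 0.0103% and 0.0242% of total FPKM, so here the shares did not overlap either. Of the 7 enzymes, 5 fell in the 10-library fit, and the median was -2.27, or -1.09 with equal library totals. In both models Psat1 was the member with the most negative log2 change on the deposited values. In KrasT Slc7a5 was level with it (-1.865 against -1.87). There Slc7a5 was the more negative with a pseudocount of 0.1, quantile scaling or equal library totals. In the 10-library MycT fit Shmt1 was the more negative with quantile scaling (-2.92 against -2.76).

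Psat1 was at 172.5 FPKM in untreated MycT replicate 2 and 133.1 in the untreated library without a number, and at 11.9 and 19.6 after doxycycline. The untreated mean was 9.69 times the doxycycline mean, and the change was -3.22 ± 0.54 (SE, 10-library limma adjusted p = 0.00767, and 0.0638 in the MycT table alone). Phgdh was at 194.0 and 166.1 FPKM and then 10.7 and 38.5, with a ratio of means of 7.33 (-3.07 ± 0.57 SE, 10-library limma adjusted p = 0.00986). Its doxycycline libraries differed from each other by more than its untreated ones did on the log scale, and both lay far below them. Psph, the last step, was at 26.9 and 16.8 FPKM and then 9.78 and 15 (-0.76, 10-library limma adjusted p = 0.15). Its groups did not overlap, but the gap was small beside the spread.

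Shmt1 was at 54.3 and 39.6 FPKM untreated and then 3.71 and 6.46 after doxycycline (-3.00 ± 0.40 SE, 10-library limma adjusted p = 0.00503). The untreated MycT libraries stood alone in the level of this gene: the other 8 libraries of the study lay between 1.95 and 6.46 FPKM. That order spans 2 tables that were deposited separately, and no test was made across them. Mthfd1 was at 63.4 and 48.4 FPKM and then 8.22 and 13.9 (-2.27 ± 0.55 SE, 10-library limma adjusted p = 0.0225). Shmt2 was at 82.1 and 53.3 FPKM and then 10.4 and 27.5 (-1.90 ± 0.54 SE, 10-library limma adjusted p = 0.0388). Mthfd2 was at 17.5 and 9.19 FPKM and then 2.68 and 11.4, the 1 serine enzyme whose MycT groups overlapped (-1.02, 10-library limma adjusted p = 0.26).

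**Figure D4:**
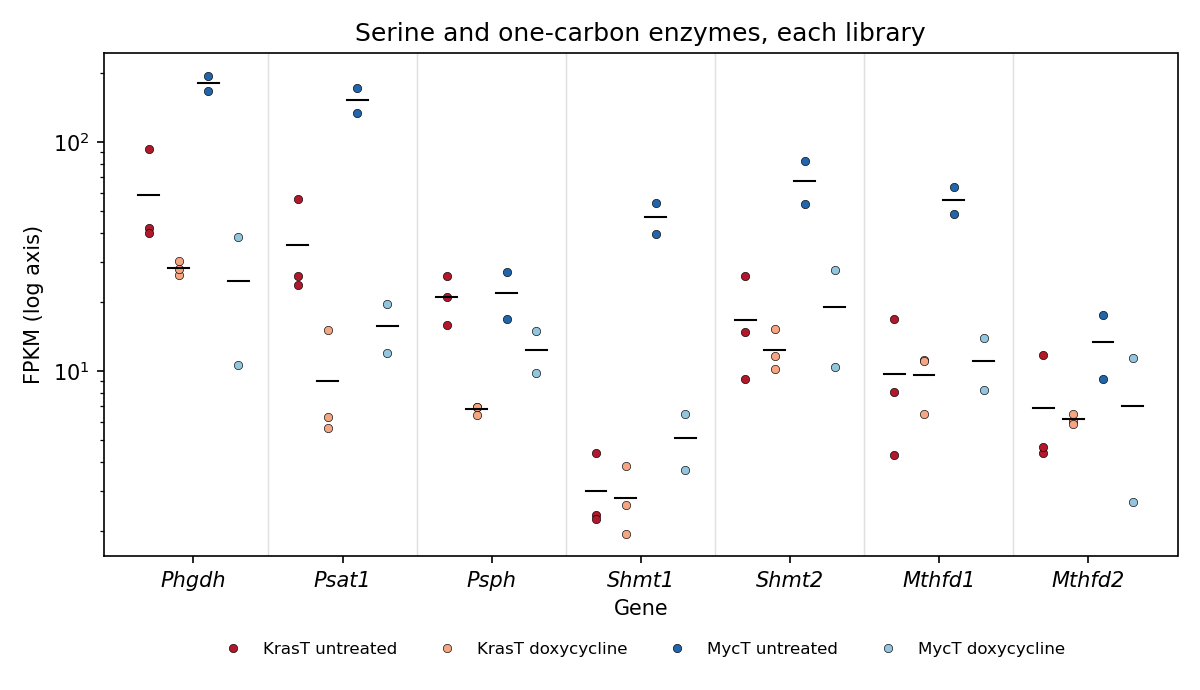
FPKM on a log axis is plotted for each of the 7 serine and one-carbon enzymes in each library, coloured by model and treatment, with bars at group means. Untreated MycT values of Phgdh, Psat1, Shmt1, Shmt2 and Mthfd1 lie above those of all other libraries, and Shmt1 shows the widest gap, with 39.6 and 54.3 FPKM against at most 6.46.

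Synthetases in MycT had 5 calls in the 10-library fit and a median change of -0.80, which turned to 0.37 with equal library totals. Their summed level was 718.8 to 813.4 FPKM untreated and 391.2 to 445.8 after doxycycline, which as shares of total FPKM, 0.0474% to 0.0722% and 0.0702% to 0.0816%, overlapped. Dars, the aspartyl enzyme, was at 67.2 and 88.2 FPKM in untreated and 29 and 15.1 in doxycycline libraries (-1.83 ± 0.40 SE, 10-library limma adjusted p = 0.0171). Farsa was at 44.5 and 39.2 FPKM and then 11.7 and 18.2 (-1.45 ± 0.31 SE, 10-library limma adjusted p = 0.0156). Neither had passed in the KrasT table alone, though Farsa passed for KrasT in the 10-library fit (limma adjusted p = 0.0465). In KrasT, Dars was at 41.6, 36.1 and 22.8 FPKM and then 21.8, 28.1 and 19.2. Farsa was at 24.4, 38.1 and 31.3 FPKM there and then 16.5, 17.1 and 15.7.

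Gars, Kars and Rars were called in both models. Gars was at 77.1 and 66.7 FPKM and then 26 and 35.8 (-1.20 ± 0.33 SE, 10-library limma adjusted p = 0.0354). Kars was at 95.5 and 82.4 FPKM and then 37.8 and 49.6 (-1.02, 10-library limma adjusted p = 0.0385). Rars was at 47.1 and 46.3 FPKM and then 21.2 and 23.8 (-1.03, 10-library limma adjusted p = 0.036). Doxycycline levels of these 3 genes were much the same in the MycT and KrasT tables, at 26 to 35.8 and 25.5 to 36.7 FPKM in the case of Gars. Cars, Hars and Qars, called in KrasT, had MycT changes of -0.76, -0.63 and -0.54 (10-library limma adjusted p = 0.0772, 0.204 and 0.245). Cars was at 15.7 and 16.3 FPKM untreated and then 9.42 and 8.76 after doxycycline. Hars was at 38.1 and 26.1 FPKM and then 18.6 and 21.7, and Qars at 53.5 and 43.1 and then 31.5 and 34.

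Wars and Aars were the 2 synthetases with a higher mean in MycT. Wars was at 19 and 18.5 FPKM untreated and 27.7 and 32.9 after doxycycline (0.66, 10-library limma adjusted p = 0.633), and Aars at 13.2 and 9.84 and then 13.5 and 19.3 (0.47, 10-library limma adjusted p = 0.492). In the MycT table alone the limma adjusted p was 0.213 for Wars and 0.421 for Aars. In KrasT, Aars was at 16, 37.9 and 25.8 FPKM and then 24.5, 12.7 and 13.6, with overlap. Eprs, the joint glutamyl and prolyl enzyme, was just short of the test in MycT (-1.03, 10-library limma adjusted p = 0.0531). The other synthetases not yet named for MycT had changes between -1.31 in Vars and -0.31 in Tars, the threonyl enzyme.

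Slc7a6 was again the transporter that fell. It was at 21.2 and 31.2 FPKM in untreated and 5.72 and 7.23 in doxycycline MycT libraries (-1.85 ± 0.30 SE, 10-library limma adjusted p = 0.00704, and 0.0689 in the MycT table alone). The untreated mean was 4.05 times the doxycycline mean, beside 3.58 times in KrasT. Slc7a5 was at 24.9 and 41.3 FPKM and then 3.59 and 17.5 (-1.84, 10-library limma adjusted p = 0.128), and Slc3a2 at 33.6 and 59.6 and then 51 in both doxycycline libraries (0.18). Slc1a5 was at 47.8 and 69.3 FPKM and then 21 and 41.7 (-0.93, 10-library limma adjusted p = 0.402). Slc6a9, the glycine carrier GlyT1, was the member with the largest higher mean in either model. It was at 0.897 and 1.54 FPKM and then 4.8 and 4.09 (1.31 ± 0.77 SE, 10-library limma adjusted p = 0.248). In the MycT table alone its change was 1.31 ± 0.35 (SE, limma adjusted p = 0.0908). In KrasT it was at 1.77, 16.3 and 8.08 FPKM and then 3.18, 4.11 and 9.99. The transporters' MycT median was -0.67, or 0.36 with equal library totals.

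Leaving out each of the 10 libraries in turn, the MycT calls of Slc7a6, Psat1 and Shmt1 were kept in all 10 fits. The Phgdh call was kept in 9 of them and lost without untreated MycT replicate 2, where 3 members passed. Farsa kept its call in 8, Dars and Mthfd1 in 7, Rars and Shmt2 in 4, Gars in 3 and Kars in 2. Without doxycycline MycT replicate 1 or 2, 5 members passed each time, and without the unnumbered untreated library 6 passed. The share of all genes called lower in these 3 fits was 3.4%, 3.59% and 8.66%, and without untreated MycT replicate 2 it was 5.95%. Leaving out KrasT doxycycline replicates 2 or 3, which changes only the shared spread, left 7, with 9.78% and 8.78% of all genes called lower.

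A last comparison asks whether the doxycycline effect differed between the models, by the interaction term of the 10-library fit. No member passed (0 of 36, with 6 at an unadjusted limma p under 0.05, as were 19.9% of all genes), while 0.0414% of 12073 genes were called more negative in MycT and 0.199% more positive. The 6 were Shmt1, Mthfd1, Phgdh, Shmt2, Dars and Cars. Shmt1 came closest, with a MycT change more negative than the KrasT change by 2.94 log2 units (-2.94 ± 0.52 SE, limma adjusted p = 0.0527). Mthfd1 followed at -2.39 ± 0.71 (SE, limma adjusted p = 0.122) and Phgdh at -2.16 ± 0.74 (SE, limma adjusted p = 0.159). Shmt1 passed without untreated KrasT replicate 1 and without the unnumbered untreated MycT library, fits in which 12.6% and 4.41% of all genes were called in either direction. Wars passed without untreated KrasT replicate 1 as well, and its difference with all libraries was 2.25 ± 1.17 (SE, limma adjusted p = 0.322).

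By sign, 30 of the 36 members were lower in both models and 0 higher in both on the deposited values. With equal library totals the tally was 6 lower in both (Farsa, Vars, Slc7a5, Slc7a6, Phgdh and Psat1) and 13 higher in both. On the deposited values Aars, Wars, Slc3a2 and Slc6a9 were lower in KrasT and higher in MycT, and Slc1a5 and Mthfd1 the reverse. Called lower in both were Gars, Kars, Rars, Slc7a6 and Psat1, which are 5 of the 9 KrasT calls and 5 of the 11 MycT calls. Here the KrasT calls came from the KrasT table alone and the MycT calls from the 10-library fit. With both models read from the 10-library fit, Farsa was also called lower in both (KrasT limma adjusted p = 0.0465). The MycT table alone called 0 members, so no member was shared on that fit. Of all genes, 8.25% were called lower in KrasT and 12.3% in the MycT fit that shares the KrasT spread. The share of all genes called lower in both, or lower in both by sign, was not counted. Whether the members' overlap exceeds that of all genes is therefore unknown. The number called lower in both was 4 with median-ratio scaling, 1 with quantile scaling (Slc7a6) and 0 with equal library totals. The 2 contrasts share no library, though the MycT calls borrow the KrasT spread. The widest contrast in size between the models lay in Shmt1, with -0.06 in KrasT and -3.00 in MycT, and the closest match among the called genes in Rars, with -1.09 and -1.03.

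**Figure D5:**
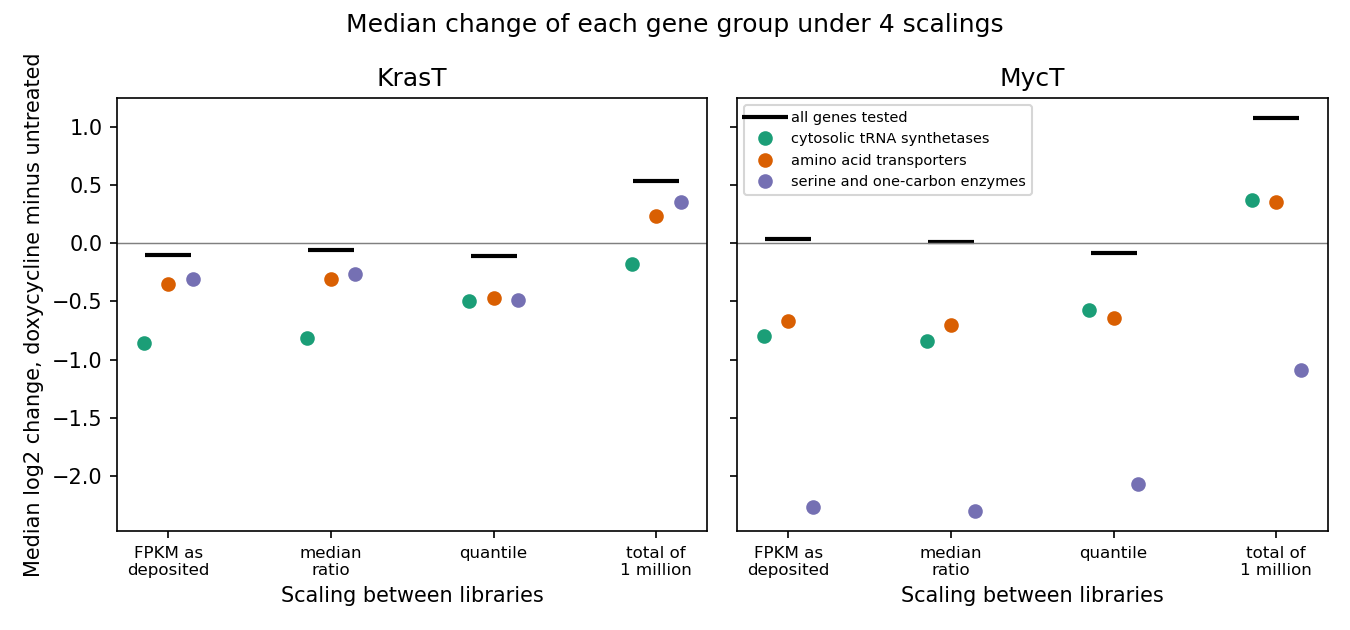
The median log2 change of each gene group (coloured points) and of all genes tested (black bars) is plotted for KrasT and MycT under 4 scalings: FPKM as deposited, median ratio, quantile and equal library totals. The group medians lie below the bar of all genes in every case, while with equal totals the sign turns for transporters in both models, for serine enzymes in KrasT (0.36) and for synthetases in MycT (0.37).

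Genes around the members in the same pathways were read from lists chosen by function, on the deposited values only. Their median log2 changes in KrasT and MycT were -0.22 and -1.61 for partners of the synthetases, -0.03 and -0.94 for mitochondrial synthetases, 0.58 and 0.51 for other transporters and -0.42 and -1.23 for other folate and methionine enzymes. They were 0.25 and -0.67 for other non-essential amino acid synthesis and -0.19 and 0.77 for the ATF4 response, beside -0.10 and 0.05 for all genes. With equal library totals the medians of all genes were 0.53 and 1.096. On the deposited values 8.25% of all genes fell and 8.46% rose in KrasT, and 12.3% and 8.11% in the 10-library MycT fit. The counts of the lists stand beside these shares. Of 10 scaffold proteins and tRNA partners of the synthetases, 2 fell and 1 rose in KrasT, and 5 fell in the 10-library MycT fit. Eef1e1 and Aimp2 are scaffold subunits of the multisynthetase complex, which holds Kars, Qars, Rars, Dars and others. Eef1e1 went from 58.4 ± 12 to 10.1 ± 4.44 FPKM (SD, n = 3 each) in KrasT (-2.48, limma adjusted p = 0.0122) and from 142.6 ± 2.22 to 15.1 ± 5.29 FPKM (SD, n = 2 each) in MycT (-3.20, 10-library limma adjusted p = 0.00503). Aimp2 had changes of -1.14 and -1.98 (limma adjusted p = 0.0407 and 0.00729). Of the 6 fits that left out a KrasT library, Eef1e1 kept its KrasT call in 3 and Aimp2 in 1. Iars2 and Slc38a4, named below, kept theirs in 2 and 1. Dtd1, which removes D-amino acids from mischarged tRNA, rose in KrasT and fell in MycT (1.49 and -1.64, limma adjusted p = 0.0234 and 0.0142).

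Mitochondrial synthetases, which charge the tRNAs of the organelle, had 1 of 17 lower in KrasT (Iars2, -1.36, limma adjusted p = 0.0193) and 7 of 17 lower in the 10-library MycT fit. Nars2 and Mars2 had MycT changes of -1.69 and -1.70 (10-library limma adjusted p = 0.015 and 0.00767). Of the other amino acid transporters, 1 of 15 tested fell and 2 rose in KrasT: Slc7a11, the cystine carrier, at -1.49, Slc43a1, a carrier of large neutral amino acids, at 1.89, and Slc38a4 at 1.02 (limma adjusted p = 0.0338, 0.017 and 0.0444). In MycT 1 of 15 fell, again Slc43a1 (-1.61, 10-library limma adjusted p = 0.0198). The related Slc43a2 had a change of 1.79 there (10-library limma adjusted p = 0.185).

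Other enzymes of the folate, glycine and methionine cycles numbered 6 lower and 0 higher of 23 in KrasT, and 9 lower and 2 higher of 22 in MycT. Gldc, the glycine decarboxylase, was at 4.22, 14.9 and 9.47 FPKM and then 0.775, 0.259 and 0.209 in KrasT (-2.78, limma adjusted p = 0.0147). Aldh1l1, which oxidises 10-formyl-tetrahydrofolate, fell in KrasT (-2.55, limma adjusted p = 0.0107) and rose in MycT (1.69, 10-library limma adjusted p = 0.0405). Cth, the last enzyme of cysteine synthesis from serine, had a MycT change of -2.81 (10-library limma adjusted p = 0.00503). Cth was at 23.5 and 13.7 FPKM in untreated MycT libraries and at 1.09 and 2.51 after doxycycline. Of 13 other genes of non-essential amino acid synthesis, 2 fell in KrasT, among them the glutamate dehydrogenase Glud1 (-0.88, limma adjusted p = 0.0373). In MycT 3 of 12 fell, among them Pycrl, of proline synthesis (-1.86, 10-library limma adjusted p = 0.0405).

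Of 18 genes of the amino acid response, 3 fell and 0 rose in KrasT, against 8.25% and 8.46% of all genes. In the 10-library MycT fit 0 fell and 1 rose, against 12.3% and 8.11% of all genes. Atf4 itself was at 200.9, 121.8 and 177.1 FPKM and then 116.9, 99.4 and 99.9 in KrasT (-0.63, limma adjusted p = 0.143), and had a MycT change of -0.13. Asns, the asparagine synthetase and a classical ATF4 target, had a change of -1.05 in each model (limma adjusted p = 0.246 and 0.274). Ddit4 and Vldlr fell in KrasT (-1.60 and -1.57, limma adjusted p = 0.0349 and 0.0451). In MycT the stress gene Nupr1 rose by 2.88 (10-library limma adjusted p = 0.028), and Vldlr had a change of 1.25 (10-library limma adjusted p = 0.0769). Of the 4 MYC and MAX genes, Myc fell and Mycn rose in KrasT (-2.15 and 1.90, limma adjusted p = 0.0236 and 0.0219), and both rose in MycT (2.14 and 1.91, 10-library limma adjusted p = 0.0333 and 0.0388). A link of Myc or Mycn to the members was not tested, and whether transgene reads were counted under the mouse symbol is unknown.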

How the data were processed

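Expression was read from 2 gene tables, 1 per tumour model, which hold the authors' deposited FPKM values. Reads were handled with cutadapt and TopHat on mm9, per the submitters' processing notes. Not given in the sources used here are the FPKM program, the annotation and the use of strand. Depth is unknown. Of 23951 rows, 27 with symbols turned into dates were left out. Columns were matched by animal number. The number of 1 untreated MycT column matches no label, so it served as an unnumbered replicate. Genes needed an FPKM of at least 1 in 3 KrasT or 2 MycT libraries. Changes of log2(FPKM + 1) were tested in R 4.3.3 by limma 3.58.1 with trended eBayes (two-sided, Benjamini-Hochberg over all genes, threshold 0.05), within each table and, for MycT and the difference between models, in 1 fit of all 10 libraries. The smallest p that an exact permutation of 3 against 3 allows is 0.1. The fits within each table were tried on simulated data, while the 10-library fit, its interaction term and the rescalings were not. Alternatives were a pseudocount of 0.1, no filter, a minimum mean of 5 FPKM, median-ratio and quantile scaling, the joint fit and leaving out each library, and, added after seeing the data, equal library totals. Members called, the 6 largest falls and 3 largest rises per model and 8 fixed genes are given in every library. Per neighbouring list up to 2 called rises and 2 falls are named, or the 2 genes of smallest p. A few of the genes so chosen are not reported here. Members and lists were chosen with earlier results of these data known. Promoters came from RefSeq (GRCm38.p6), another build than the authors'. Figures used matplotlib 3.10.9 in Python 3.11.15.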

Additional observations from a re-analysis of the deposited data

Results flagged for a closer look

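In 3 neighbouring genes the doxycycline effect differed between MycT and KrasT by the interaction term of the 10-library fit. These calls depended on single libraries. Without KrasT doxycycline replicate 2 or 3, or without untreated KrasT replicate 2, 0 of 12073 genes were called in either direction. Without KrasT doxycycline replicate 1 or untreated replicate 3, 0 genes were called more negative in MycT, so Dtd1 and Slc43a1 lost their calls. Leaving out a MycT library leaves 1 library in its group, so no calls are given for those fits. The 3 calls are therefore not shown to withstand the loss of a MycT library. Dtd1, the D-aminoacyl-tRNA deacylase, had a MycT change more negative by 3.13 log2 units (-3.13 ± 0.44 SE, limma adjusted p = 0.0334). It was at 6.94, 10.3 and 6.56 FPKM in untreated and 19.7, 21.2 and 31.7 in doxycycline KrasT libraries, and at 71.8 and 54.6 and then 21.6 and 17.5 in MycT. Slc43a1, a carrier of large neutral amino acids, differed by -3.50 ± 0.48 (SE, limma adjusted p = 0.0327). Its levels were 0.7, 0.148 and 0.15 FPKM and then 5.27, 2.4 and 4.34 in KrasT, and 11.3 and 10.8 and then 2.42 and 3.52 in MycT. Aldh1l1, of folate metabolism, differed the other way, by 4.24 ± 0.63 (SE, limma adjusted p = 0.0378). It was at 28.8, 48.9 and 36.4 FPKM and then 8.93, 4.07 and 4.55 in KrasT, and at 0.326 and 1.33 and then 3.08 and 6.9 in MycT. In each of the 3 genes the untreated and doxycycline libraries did not overlap in either model, and the direction was opposite in the 2 models.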

How the results depend on the processing

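In KrasT, 9 members were called lower. Quantile scaling gave 4 and equal library totals 2, and leaving out 1 library gave 0 to 17. The other settings gave 7 to 10. The members' median change of -0.80 became -0.13 with equal totals and ran from -1.03 to -0.41 without single libraries. There the transporters' median turned from -0.35 to 0.24 and that of the serine enzymes from -0.31 to 0.36. Without single libraries the serine median ran from -0.64 to 0.0501, the latter without untreated replicate 2. In the MycT table alone, 0 members were called. With equal totals that table alone gave 2 lower and 4 higher. The joint fit called 11 lower on the deposited values, and 3 lower and 3 higher with equal totals. The MycT median of -0.89 turned to 0.29 with equal totals and ran from -1.06 to -0.80 without single libraries. The synthetases' median turned to 0.37 and the transporters' to 0.36. The number of members whose effect differed between models was 0 under every other setting and 0 to 2 without single libraries. In the joint MycT fit, quantile scaling left 7 calls. The cause of these changes was not tested, except that leaving out a library leaves fewer samples. No paired analysis was possible because the groups share no replicate number from the labels. FPKM keeps no read depth, so the counting error of low genes such as Slc6a9 and Shmt1 is unknown.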

Other observations

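The mitochondrial leucyl-tRNA synthetase Lars2 stood apart from the members and from its own list. It was at 11501 FPKM in KrasT doxycycline replicate 1 and 11508 in MycT doxycycline replicate 2, and at 573.4 to 1922 FPKM in the other 8 libraries. Those 2 libraries are the ones with Rn45s at 17238 and 20880 FPKM. The highest level of any other mitochondrial synthetase in any library was 70.8 FPKM, and the cytosolic leucyl enzyme Lars lay between 12.2 and 29.4 FPKM. In KrasT the 3 members with a mean over 90 FPKM in untreated tumours were Wars, Gars and Nars, at 121.9, 98.2 and 92.5 FPKM. After doxycycline Slc3a2, Nars and Kars had the highest means there, at 49, 39 and 37 FPKM. Untreated MycT tumours had Phgdh and Psat1 at the top, at 180.1 and 152.8 FPKM, followed by Kars, Dars and Gars at 88.9, 77.7 and 71.9 FPKM. After doxycycline the order in MycT was led by Slc3a2, Kars and Nars, at 51, 43.7 and 36.8 FPKM.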
